A study of Mus musculus with 19 samples.

Results

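Potassium channels are membrane proteins that let potassium leave a cell, and the subunits described here are the 94 protein-coding mouse genes whose symbol starts with Kcn, out of 55487 genes in the deposited tables and 21974 protein-coding genes among them. A further 5 Kcn symbols belong to genes that are not protein-coding and were not used. By gene family, 40 are voltage-gated pore subunits, 13 accessory subunits or regulators of those pores, 15 inward rectifiers and 14 two-pore-domain leak channels. A further 8 belong to the families of calcium- or sodium-activated pores (ion-activated pores below), though not every member need open that way. The last 4 are beta subunits of the calcium-activated pores. The 94 genes lie on 19 chromosomes.

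Potassium channels set the resting potential of neurons, end each action potential and space the next one. Voltage-gated pores are tetramers of alpha subunits, some of which are silent alone and only modify others, and cytoplasmic or membrane accessory subunits tune their gating and their place in the membrane. Inward rectifiers and leak channels hold the resting potential, and in astrocytes of the spinal cord an inward rectifier takes up the potassium that firing neurons release. In motor neurons the M current, the A-type current and the calcium-activated currents set how the cell fires, and alterations of excitability are a known feature of motor neuron disease.

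The series is about miR-146a, a microRNA, in motor neuron degeneration. RNA was sequenced from snap-frozen spinal cords of mice of the labelled genotype miR-146a KO (9 libraries) or wild type (4 libraries), and from motor neurons made from the mouse embryonic stem cell line RW.4 with retinoic acid and SAG, a Smoothened agonist. The motor neuron cultures, of wild-type genotype, were transfected with Lipofectamine 2000 and 10 nM of a locked nucleic acid (LNA), an oligonucleotide that binds and blocks its target, either miR-146a LNA (3 libraries) or control LNA (3 libraries), for 72 h. The sources used here give no age, sex or litter of the mice, and cells of all 6 cultures come from 1 line. Nothing in the labels ties each library to its own mouse or its own culture, so the p-values below measure the spread between libraries, which may be technical.

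Cord libraries held 28163289 to 39577247 counts and culture libraries 40647549 to 65471742, so that 3 counts came to at most 0.107 CPM, which scales counts to the library's total, in any of them. The gene of the miR-146a precursor, Mir146, had 1 count in the 9 knockout libraries and 0 in the 4 wild-type libraries and the 6 cultures, so these tables do not show whether miR-146a was lost. Pttg1, the protein-coding gene nearest to Mir146 on one side, had a normalised CPM of 14.9 to 17.4 in wild type, of 1.06 to 1.81 in knockout libraries 1 to 8, and of 13.04 in the library labelled knockout replicate 9. The library labelled knockout replicate 9 also held 1947 normalised CPM of Sod1, against 191 to 275 in the other 12. Knockout replicate 7 held 2564 normalised CPM of the skeletal muscle actin Acta1, against at most 6.03 elsewhere. Some results that rest on these libraries are given with and without them. Summed motor neuron markers (Chat, Slc18a3, Slc5a7, Isl1, Mnx1, Prph) reached 2948 to 3045 normalised CPM in control cultures, where summed markers of pluripotent cells reached 0.353 to 0.733, and markers of neurons, astrocytes and oligodendrocytes were all present in the cords.

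Before the values, the microRNA and its candidate sites in the channel genes are shown, because the seed (bases 2 to 8 of a microRNA) pairs with messenger RNA. The mature mouse sequences come from RefSeq, build GRCm38.p6, with the seed in capitals. miR-146a-5p lies at chr11:43374435-43374456 on the minus strand and miR-146b-5p, its relative from another locus, at chr19:46342790-46342811 on the plus strand.
miR-146a-5p: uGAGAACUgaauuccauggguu
miR-146b-5p: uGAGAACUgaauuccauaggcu
Both share the seed and 20 of 22 bases. The strings searched on the sense strand of the longest annotated 3′ UTR of each gene (GENCODE M21, GRCm38) were AGTTCTC, the match to the whole seed, and AGTTCTCA, the same with an A after it. All 94 genes had an annotated 3′ UTR. The seed match occurred in 17 of them, and 4 held the longer form, Kcna6, Kcnj10, Kcnk10 and Kcnrg. Counting GTTCTCA as well, 23 of the 94 genes held at least 1 string.

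Of the 13 channel genes that fell in the LNA cultures (below), 7 held the seed match. It was present in 15 of the 72 channel genes tested there and in 12.7% of all protein-coding genes tested. The share among all genes that fell was not counted. Each match to the whole seed in these 7 genes, shown because they fell, is given here in capitals. Each lies within 1 exon of the 3′ UTR.
Kcnd2 (chr6:21728754-21728781, plus strand): acaaggcacaaAGTTCTCtgcaaaatca
Kcnh7 (chr2:62697977-62698004, minus strand): ttaagcacctgAGTTCTCctgtgtgagc
Kcnma1 (chr14:23297265-23297292, minus strand): gttgagttctgAGTTCTCtgtaggatta
Kcnb2 (chr1:15715482-15715509, plus strand): cacaagggttcAGTTCTCttccctgaca
Kcnq3, first site (chr15:65987814-65987841, minus strand): gagagtgatgcAGTTCTCtgatgcctgc
Kcnq3, second site (chr15:65987170-65987197, minus strand): taaaaaaaaaaAGTTCTCtgagaggcca
Kcnab1 (chr3:65377887-65377914, plus strand): tctagttagcaAGTTCTCcatcacttta
Kcnk9 (chr15:72505037-72505064, minus strand): caacggtagtgAGTTCTCtggcatggcc
For comparison, the longer form in 2 abundant channel genes of these materials reads as follows, with the match in capitals.
Kcnk10 (chr12:98434486-98434514, minus strand): ggcaacgctatAGTTCTCAcacagtgtca
Kcnj10 (chr1:172370650-172370678, plus strand): tttccctctccAGTTCTCAagtggatctt
A match is a description of letters, not a shown site of binding. Its presence went with UTR length: among channel genes tested in cultures the median 3′ UTR was 4793 bases with a seed match and 1799 bases overall.

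The most abundant channel genes differed between cord and cultured motor neurons. On the deposited TPM scale, which counts transcripts relative to all transcripts of a library and takes gene length into account so that genes can be compared, the 94 genes together reached 3740 ± 239.7 TPM (SD, n = 4) in wild-type cords and 927 ± 22.5 TPM (SD, n = 3) in control cultures. Voltage-gated pores made up 50.5% of that sum in cord and 62.7% in cultures. Inward rectifiers made up 19.7% in cord and 2.67% in cultures.

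In wild-type cord Kcnj10, the inward rectifier of astrocytes and oligodendrocytes, stood at 507 ± 69.5 TPM (SD, n = 4). Kcnab2, the beta subunit of axonal channels, stood at 344 ± 26.2 TPM and Kcna1, a pore subunit found beside the node of Ranvier, at 238 ± 28.9 TPM. The next genes in order were Kcnc1 (154 ± 3.97 TPM), Kcnh2 (152 ± 4.86 TPM), Kcna2 (137 ± 18.9 TPM) and Kcng4 (122 ± 20.1 TPM), each within the spread of its neighbour. The highest leak channel was Kcnk1 at 118.5 ± 9.35 TPM and the highest ion-activated pore was the sodium-activated Kcnt1 at 73.5 ± 9.84 TPM.

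In control cultures the A-type pore Kcnd2 stood at 80.5 ± 5.12 TPM (SD, n = 3). The mechanosensitive leak channel Kcnk10 reached 63.8 ± 2.66 TPM and the ether-a-go-go pore Kcnh1 54.8 ± 4.34 TPM. Kcna6 (43.7 ± 1.66 TPM), Kcnip1 (43.5 ± 0.410 TPM), which binds A-type pores, and Kcnh4 (43.3 ± 2.65 TPM) did not differ beyond their spread. Kcnt2, a sodium-activated pore, stood at 27.2 ± 1.88 TPM and the highest inward rectifier, Kcnj2, at 8.41 ± 0.369 TPM. Kcnj10 had 0.774 ± 0.0589 TPM there, and Kcng4 had 1 count in the 3 control cultures together. The materials were prepared apart and no test was made between them.

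**Figure D1:**
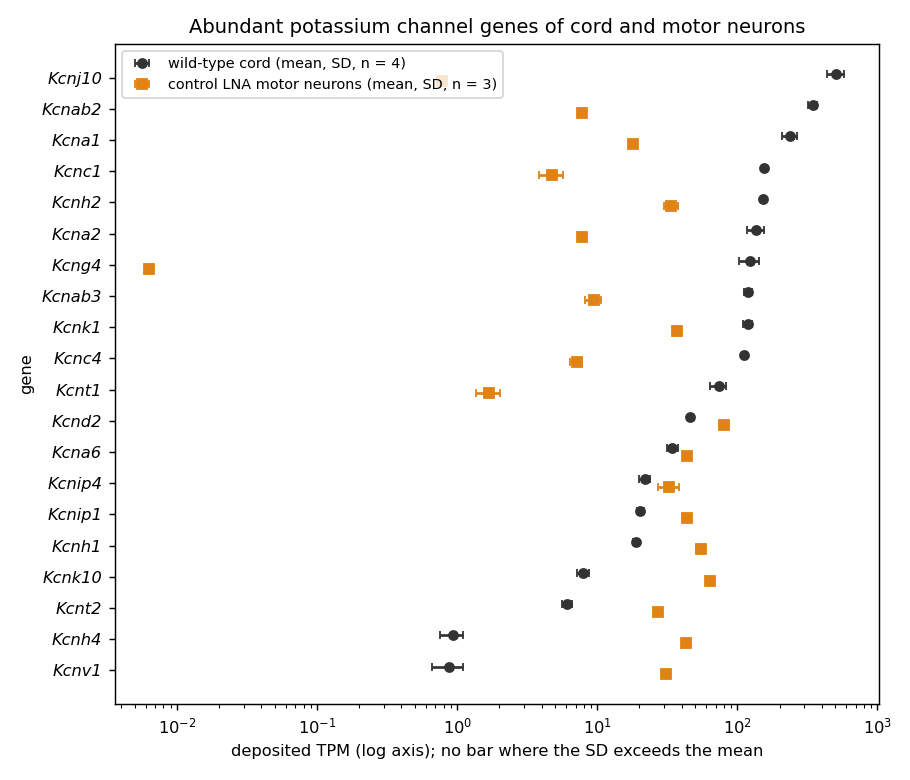
Deposited TPM (log axis) of 20 channel genes from among the most abundant of wild-type cord (circles, mean and SD of 4 libraries) or of control LNA motor neurons (squares, mean and SD of 3 libraries). Kcnj10 stands at 507 TPM in cord and 0.774 TPM in cultures and Kcnd2 at 80.5 TPM in cultures, and Kcng4 has no bar in cultures because its SD exceeds its mean.

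In motor neurons given the miR-146a LNA, 13 of the 72 channel genes tested fell and 2 rose. The fallen genes included the sodium-activated pore Kcnt2, the axonal pore Kcna1, the large-conductance calcium-activated pore Kcnma1, the A-type pore Kcnd2 with its partner Kcnip1, the M-current subunit Kcnq3, and 3 pores of the ether-a-go-go family. Falls ranged from 0.33 to 0.69 on the log2 scale, which left 61.9% to 79.8% of the control level. No inward rectifier passed the test. Kcnh3, another ether-a-go-go family pore, and Kcne1l, a small membrane accessory subunit, rose from low levels.

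The test was edgeR's quasi-likelihood test over all 19099 genes with enough counts, and a call needed a Benjamini-Hochberg adjusted p under 0.05. Past it were 8.56% of all genes tested, against 15 of 72 channel genes, and in the lower direction 6.16% of all genes against 13 of 72. In the higher direction the background was 2.4% and 2 channel genes passed. By class, 8 of 35 voltage-gated pores fell and 1 rose, 2 of 8 accessory subunits fell and 1 rose, 2 of 7 ion-activated pores fell, and 1 of 10 leak channels fell. None of the 10 inward rectifiers and 2 beta subunits tested passed, and at an unadjusted p under 0.05 stood 2 inward rectifiers and 1 beta subunit, while DESeq2 called 0 of either and limma called 1 inward rectifier, Kcnj10. At an unadjusted p under 0.05 stood 24 lower channel genes, beside 13.1% of all genes, and 9 higher, beside 9.81%. DESeq2 called 15 lower, beside 7.38%, and 1 higher, beside 3.91%, and limma called 18 in all, beside 11.5%. Negative log2 fold changes were found for 43 of the 72 genes, beside 48.5% of all genes. The median log2 fold change of the 72 genes was -0.08, beside 0.01 for all genes tested. The 22 other channel genes had too few counts to test, with at most 43 counts in the 3 LNA libraries together, and among them Kcnk16 had no count in any culture.

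Kcnt2 (ENSMUSG00000052726), a pore that opens as sodium builds up in the cell, stood at 52.6, 51.4 and 46.3 normalised CPM (scaled by edgeR's TMM factors) in control cultures and at 28.3, 33.2 and 31.5 in LNA cultures. All 3 LNA libraries were below all 3 controls. Its log2 fold change was -0.69 ± 0.08 (SE), with an adjusted p of 3.18e-05 by edgeR, and it covers chr1:140246158-140612067 (GRCm38). Kcnma1 (ENSMUSG00000063142), the large-conductance pore opened by calcium and voltage together, had 73.8, 72.8 and 64.4 normalised CPM in controls and 49.1, 47.9 and 44.8 with the LNA, again with no overlap. It fell by 0.57 ± 0.07 (SE) on the log2 scale, with an edgeR adjusted p of 4.75e-05, and covers chr14:23289431-24014491. The small-conductance calcium-activated pores Kcnn2 and Kcnn3, which follow bursts of spikes with a slow pause, gave log2 fold changes of -0.03 ± 0.18 and -0.18 ± 0.22 (SE) and did not pass the test.

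The A-type pair followed. Kcnd2, whose pore carries the transient current of dendrites, stood at 102, 116 and 110 normalised CPM in controls and at 72.0, 72.0 and 79.9 with the LNA. The groups did not overlap, the log2 fold change was -0.55 ± 0.06 (SE) and the edgeR adjusted p was 4.04e-05. Kcnip1, a calcium-binding protein that attaches to such pores, had 71.6, 72.6 and 73.0 normalised CPM in controls and 48.8, 47.9 and 49.4 with the LNA. The groups did not overlap, and the log2 fold change was -0.57 ± 0.06 (SE), with an edgeR adjusted p of 1.56e-05. Kcnip4, of the same family, had a log2 fold change of -0.26 ± 0.12 (SE) and an edgeR adjusted p of 0.217, and its groups overlapped.

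Kcna1, the axonal pore, stood at 22.8, 23.4 and 21.9 normalised CPM in controls and at 14.5, 16.5 and 13.1 with the LNA. Every LNA library was lower than every control, and the log2 fold change was -0.63 ± 0.10 (SE) with an edgeR adjusted p of 0.000461. Its usual partners beside the node did not pass the test: Kcna2 had a log2 fold change of -0.04 ± 0.09 (SE) and Kcnab2 one of 0.03 ± 0.10 (SE). Another beta subunit, Kcnab1, which speeds inactivation, fell from 27.9, 24.3 and 26.2 normalised CPM to 22.3, 19.9 and 18.6. Its log2 fold change was -0.37 ± 0.09 (SE) with an edgeR adjusted p of 0.0142.

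Kcnq3, of the M current that steadies firing, stood at 32.6, 30.7 and 26.6 normalised CPM in controls and at 23.9, 21.5 and 24.0 with the LNA. The groups did not overlap, with a log2 fold change of -0.37 ± 0.09 (SE) with an edgeR adjusted p of 0.0128. The related Kcnq5 had a log2 fold change of -0.48 ± 0.18 (SE) from a lower level, and did not pass (edgeR adjusted p = 0.12).

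Among the ether-a-go-go pores, Kcnh7 had 20.3, 18.6 and 18.03 normalised CPM in controls and 12.6, 11.8 and 12.4 with the LNA. Its log2 fold change was -0.63 ± 0.09 (SE), with an edgeR adjusted p of 0.000367 and no overlap of the groups. Kcnh1 stood at 115, 104 and 98.5 normalised CPM against 86.6, 85.9 and 74.4, and Kcnh5 at 17.04, 14.96 and 13.7 against 11.7, 10.7 and 11.8. They fell by 0.36 ± 0.07 and 0.42 ± 0.11 (SE) on the log2 scale. Kcnh2 and Kcnh4, of the same family and abundant, had log2 fold changes of -0.08 ± 0.09 and -0.01 ± 0.08 (SE). The delayed rectifier Kcnb2 fell by 0.42 ± 0.09 (SE), from 32.7, 31.4 and 27.7 normalised CPM to 22.8, 24.2 and 21.5. The acid-sensitive leak channel Kcnk9 was nearest to the threshold among the fallen genes, at 34.5, 31.1 and 29.6 normalised CPM against 24.8, 29.0 and 22.2 (log2 fold change -0.33 ± 0.10, SE, edgeR adjusted p = 0.0436).

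The 2 genes that rose had few counts. Kcnh3 stood at 0.808, 0.458 and 0.556 normalised CPM in controls and at 1.53, 1.88 and 1.03 with the LNA, or 102 and 251 counts in all, and its log2 fold change was 1.28 ± 0.33 (SE) with an edgeR adjusted p of 0.0235. Kcne1l had 19 counts in the 3 controls and 113 in the 3 LNA libraries, with normalised CPM of 0.185, 0.0366 and 0.115 against 0.657, 0.756 and 0.580. Its log2 fold change was 2.53 ± 0.54 (SE), with an edgeR adjusted p of 0.00644. Only 1 of 3 control libraries reached the low-count limit for Kcne1l, so it was tested because of its level in the LNA group.

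Leaving out 1 culture at a time gave 11 to 17 channel genes past the threshold, and 10 genes passed in all 6 of these fits, among them Kcna1, Kcnb2, Kcnd2, Kcne1l, Kcnh1, Kcnh7, Kcnip1, Kcnma1 and Kcnt2. Kcnab1 passed in 4 of the 6, Kcnh5 and Kcnq3 in 3, Kcnh3 in 2 and Kcnk9 in 1. Kcnk9 was lost without any control culture and without LNA culture 1 or 3 (adjusted p up to 0.195). Kcnh5 and Kcnq3 were lost without control culture 1 or 2 or LNA culture 2 (adjusted p up to 0.146 and 0.0818). Kcnab1 was lost without control culture 1 or 3 (up to 0.0805), and Kcnh3 without control culture 2 or 3 or LNA culture 1 or 2 (up to 0.128). Beyond the called genes, LNA and control groups also did not overlap for Kcna3, Kcna4, Kcna6, Kcnd3, Kcnh8, Kcnj6, Kcnk1, Kcnk10 and Kcnmb2 (lower) and for Kcng1, Kcnj14, Kcnk3, Kcnk5 and Kcns1 (higher). Kcnk3, the other acid-sensitive leak channel, had 25.3, 25.5 and 25.4 normalised CPM in controls and 30.02, 30.5 and 27.1 with the LNA, against the direction of Kcnk9, with a log2 fold change of 0.20 ± 0.08 (SE, edgeR adjusted p = 0.125). Kcna4, an A-type pore of axons, came closest to the threshold of the genes that missed it on the lower side, with a log2 fold change of -0.39 ± 0.12 (SE, edgeR adjusted p = 0.0548), and DESeq2 and limma both called it. Kcnj10, of astrocytes, had 1.03, 1.19 and 1.09 normalised CPM in controls and 2.48, 2.48 and 1.08 with the LNA, so that replicate 3 lay within the control range (log2 fold change 0.86 ± 0.31, SE, edgeR adjusted p = 0.0962). It was called by limma (adjusted p = 0.0284), by edgeR with no low-count filter (0.0451) and by edgeR without LNA culture 3 (log2 fold change 1.17, adjusted p = 0.00401), and over all its alternatives the adjusted p went up to 0.263. In all, groups without overlap numbered 22 lower and 7 higher of 72 channel genes, and 15.1% and 12.8% of all genes tested.

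**Figure D2:**
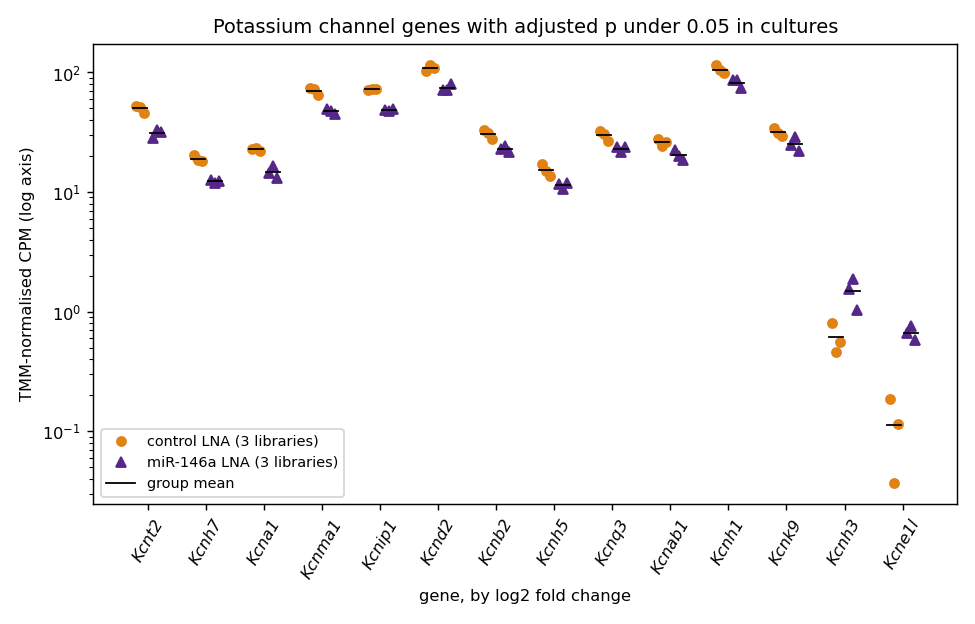
TMM-normalised CPM (log axis) of 14 channel genes past the threshold in cultures, for each of 3 control LNA libraries (circles) and 3 miR-146a LNA libraries (triangles), with group means as lines. The fallen genes plotted sit between 10.7 and 116 CPM with no overlap of the groups, and Kcnh3 and Kcne1l rise at levels below 2 CPM.

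Markers of cell types also differed between the culture groups. Summed motor neuron markers were 2948 to 3045 normalised CPM in controls and 2967 to 3135 with the LNA, and 1 of 6, Isl1, rose. Of 6 general neuron markers, Map2 and Syt1 fell (log2 fold changes -0.24 ± 0.04 and -0.16 ± 0.05, SE), and the summed level was 5295 to 5428 against 4881 to 5033. Of 6 progenitor markers, Nes and Top2a rose, and the sum was 56.5 to 65.9 against 73.6 to 90.4. Astrocyte markers summed to 24.0 to 25.4 in controls and 19.6 to 23.8 with the LNA, and microglia markers to 25.9 to 26.8 and 29.7 to 33.9. Too few counts left 4 of 7 astrocyte and 2 of 6 microglia markers to test. Of these 1 astrocyte marker fell and 1 microglia marker rose, and the other microglia marker tested had a log2 fold change below 0. Of 4 oligodendrocyte precursor markers Pdgfra rose and Vcan and Tnr fell, and the sum was 75.8 to 86.7 in controls and 61.9 to 68.1 with the LNA. The part of cell makeup in the channel changes was not tested, and in bulk RNA fewer cells of a type and less RNA per cell cannot be told apart.

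The fallen channel genes were mostly long. Of 13 tested channel genes that span 300 kb or more, 9 fell (Kcnt2, Kcnh7, Kcnma1, Kcnip1, Kcnd2, Kcnb2, Kcnq3, Kcnab1 and Kcnh1) and all 13 had a negative log2 fold change, with a median of -0.42. The other 4, Kcnq5, Kcnh8, Kcnip4 and Kcnn2, did not pass. Among all protein-coding genes of that span the share that fell was 44.7%, or 239 of 535, and the median log2 fold change was -0.31. Under 30 kb, 1 of 29 channel genes fell, Kcna1 at 5.99 kb, beside 2.33% of all protein-coding genes. Between 30 and 100 kb, 2 of 21 channel genes fell, Kcnk9 among them, beside 8.30%, and between 100 and 300 kb 1 of 9 fell, Kcnh5, beside 22.1%. The share that fell thus rose with span among all protein-coding genes of these cultures, and the part of span in the channel changes was not tested. In cords the 14 channel genes of 300 kb or more had a median log2 fold change of -0.01, 7 of them negative.

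**Figure D3:**
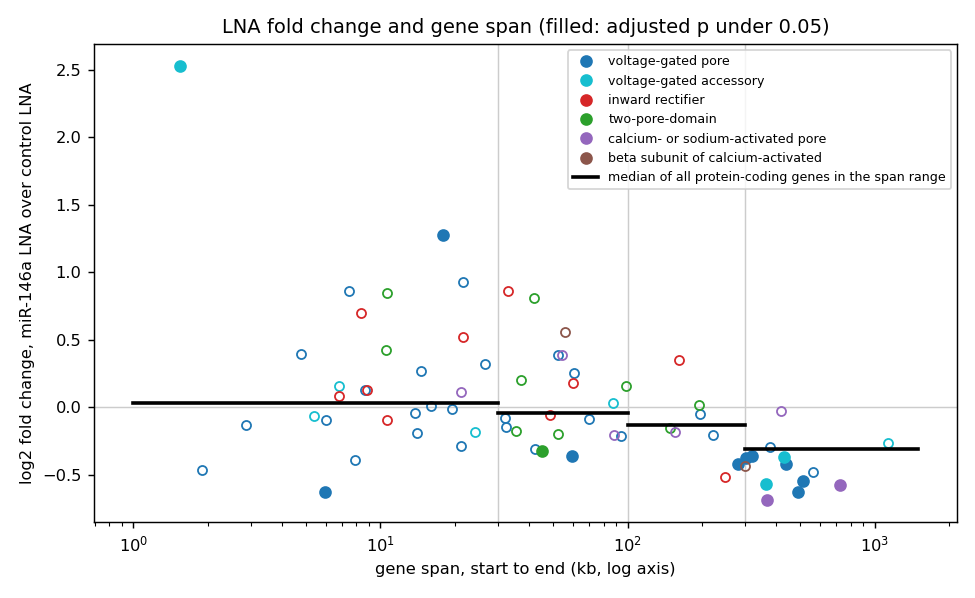
Log2 fold change of the 72 channel genes tested in cultures against gene span in kb (log axis), coloured by class and filled where the adjusted p is under 0.05. The black lines, medians of all protein-coding genes in each span range, drop from 0.03 under 30 kb to -0.31 at 300 kb or more, and all 13 channel genes in the last range lie below 0.

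Channel genes with a seed match to miR-146a mostly lay below 0 in the LNA cultures, as did most protein-coding genes with one. The 15 tested channel genes with the match had a median log2 fold change of -0.21, and 2 of them were above 0, beside -0.03 for channel genes without it. For all protein-coding genes tested the medians were -0.06 with the match and -0.01 without, and 643 of the 1826 with it were above 0. A match was present in 20.8% of the channel genes and 12.7% of all genes tested. Of the fallen holders, Kcnd2, Kcnh7, Kcnma1, Kcnb2, Kcnq3 and Kcnab1 span 300 kb or more, where 44.7% of all protein-coding genes fell. The part of span in these values was not tested. The holders of the longer form include Kcnk10, which had 140, 152 and 150.1 normalised CPM in controls and 137, 128 and 132 with the LNA (log2 fold change -0.15 ± 0.05, SE, edgeR adjusted p = 0.0849). Of the other holders, Kcnj10 had a log2 fold change of 0.86 ± 0.31, Kcna6 of -0.15 ± 0.06 and Kcnrg of -0.07 ± 0.22 (SE). In cords the 16 tested channel genes with the match had a median of -0.01, with 7 above 0. For all protein-coding genes with the match the median there was 0.02, with 1061 of 1931 above 0.

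In spinal cord no channel gene passed edgeR's test between knockout and wild type. Most tested channel genes, 53 of 81, had a negative log2 fold change, against 46.9% of all genes, and their median was -0.07 beside 0.02. The lowest values belonged to Kcnj14, an inward rectifier known from motor nuclei, and to Kcng1 and Kcng4, silent subunits that modify delayed rectifiers. The highest belonged to Kcnn4, where 1 library stood out, and to Kcnk6, both channels known from immune cells.

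Of 22174 genes tested in cords 0.0% passed at an adjusted p under 0.05, so the absence of calls among the 81 channel genes is shared by every gene tested. At an unadjusted p under 0.05 there were 13 lower channel genes, beside 6.8% of all genes, and 3 higher, beside 7.53%. DESeq2 called 3 channel genes lower (Kcng1, Kcng4 and Kcnk12), beside 0.338% of all genes, and none higher, beside 1.41%. limma with voom and quality weights called 0 channel genes, beside 0.0135% of all genes, with 26 at an unadjusted p under 0.05, beside 19%. Without both libraries 7 and 9 edgeR called 0, beside 0.0371%, with 19 at an unadjusted p under 0.05, beside 15%. The other 13 of the 94 genes had too few counts to test.

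Kcng4, a marker of large fast neurons in several tissues, had 158, 182, 136 and 129.7 normalised CPM in wild-type cords and a lowest, median and highest value of 86.1, 113 and 133 in knockout cords. Of the 9 knockout libraries 8 lay below every wild-type library. The log2 fold change was -0.47 ± 0.13 (SE), with an adjusted p of 0.292 by edgeR and 0.0458 by DESeq2, and without libraries 7 and 9 it was -0.49 (edgeR adjusted p = 0.189). Kcng1 stood at 15.6, 18.9, 12.7 and 12.4 normalised CPM in wild type and at 7.59, 9.36 and 14.3 (lowest, median, highest) in knockout, again with 8 of 9 below every wild-type library. Its log2 fold change was -0.60 ± 0.16 (SE), or -0.55 without libraries 7 and 9, with adjusted p of 0.292 by edgeR and 0.0452 by DESeq2.

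Kcnj14 had 23.4, 24.4, 19.1 and 19.8 normalised CPM in wild type against 8.33, 12.9 and 22.9 (lowest, median, highest) in knockout. Replicate 5 alone of the knockout libraries reached the wild-type range. The log2 fold change was -0.67 ± 0.21 (SE), with adjusted p of 0.292 by edgeR and 0.0758 by DESeq2. It was -0.59 without libraries 7 and 9.

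For 3 channel genes all 9 knockout libraries lay below all 4 wild-type libraries, a pattern found in 0.798% of all genes tested, and for none above, beside 0.505%. Kcnk12, a leak channel subunit, had 39.0, 42.2, 35.4 and 36.1 normalised CPM in wild type and 28.1, 29.9 and 35.3 (lowest, median, highest) in knockout, a log2 fold change of -0.29 ± 0.08 (SE). DESeq2 gave it an adjusted p of 0.045 and edgeR one of 0.292. Kcnab2 had 768, 868, 735 and 751 normalised CPM against 559, 632 and 731, and Kcnab1 had 114, 117, 103 and 102 against 80.9, 100.04 and 101. Their log2 fold changes were -0.27 ± 0.08 and -0.22 ± 0.07 (SE), and the highest knockout library of each came within 1 SD of the lowest wild-type library.

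The abundant Kcnj10, Kcnj16, Kcna1 and Kcna2 overlapped between the groups. Kcnj10, of astrocytes, had 888, 1043, 862 and 768 normalised CPM in wild type against 683, 811 and 939 (lowest, median, highest) in knockout (log2 fold change -0.15 ± 0.09, SE), and its partner Kcnj16 a log2 fold change of -0.12 ± 0.06 (SE). Kcna1 had a log2 fold change of -0.08 ± 0.08 (SE), and that of Kcna2 was -0.0003 ± 0.09 (SE) and above 0 with DESeq2, with its size factors and with library sizes alone.

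By class, an unadjusted p under 0.05 in the lower direction was found for 7 of 37 voltage-gated pores and 2 of 10 accessory subunits. It was also found for 3 of 11 leak channels and 1 of 12 inward rectifiers, beside 6.8% of all genes tested. Kcnk3, a leak channel of motor neurons, had 55.8, 57.996, 51.1 and 57.4 normalised CPM in wild type and 41.8, 47.01 and 55.9 (lowest, median, highest) in knockout, with 7 of 9 below every wild-type library and a log2 fold change of -0.23 ± 0.08 (SE). Kcns3, a silent partner of delayed rectifiers, had a log2 fold change of -0.27 ± 0.09 (SE), with 8 of 9 below. Of the 3 on the higher side Kcnn3, a small-conductance calcium-activated pore, stood at 24.1, 29.5, 27.4 and 25.9 normalised CPM in wild type. In knockout it stood at 27.004, 31.2 and 40.1 (lowest, median, highest), with 5 of 9 above every wild-type library (log2 fold change 0.22 ± 0.10, SE). The highest value was in the library labelled knockout replicate 9, and without that library the log2 fold change was 0.17. How often such counts of knockout libraries beyond every wild-type library occurred among all genes was not computed.

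Of channels known from microglia and other immune cells, Kcnk6 stood at 2.92, 4.26, 2.77 and 4.21 normalised CPM in wild type and at 2.88, 7.49 and 15.03 (lowest, median, highest) in knockout. Above every wild-type library were 7 of 9 knockout libraries, and the log2 fold change was 1.10 ± 0.39 (SE, edgeR adjusted p = 0.292), or 1.00 without libraries 7 and 9. Kcnn4 stood at 0.559, 0.738, 0.913 and 1.117 normalised CPM in wild type and at 0.408, 1.495 and 13.2 in knockout, the highest in replicate 7. Its log2 fold change was 1.70 ± 0.86 (SE) with that library and 0.75 without it. Kcnk13 and Kcna3, also of microglia and immune cells, had log2 fold changes of -0.26 ± 0.12 and 0.15 ± 0.12 (SE).

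Cell type markers also varied among the cord libraries. In cords edgeR called none of the listed markers, and the summed ranges of knockout and wild type overlapped for each list below. Summed markers of microglia (6 genes) were 244 to 299.9 normalised CPM in wild type and 223 to 850 in knockout, and the 3 knockout libraries with most Kcnk6 (replicates 7, 4 and 1) had the 3 highest sums, 850, 755 and 716. Summed markers of red blood cells were 22.7 to 44.5 in wild type and 36.5 to 707 in knockout, with all 6 called higher by DESeq2. Summed neuron markers were 4309.8 to 4795 in wild type and 3703 to 4456 in knockout. Of their 6 log2 fold changes 1 was above 0, with a median of -0.07. Motor neuron markers summed to 265 to 312 and 191 to 437, the highest in knockout replicate 7, with 2 of 6 log2 fold changes above 0 and a median of -0.23. Oligodendrocyte markers summed to 12375 to 16913 and 11206 to 15804, with 1 of 6 above 0 and a median of -0.18. Summed astrocyte markers were 4643 to 6430 in wild type and 4848 to 11072 in knockout, with 6 of 7 log2 fold changes above 0 and a median of 0.15. Neural progenitor markers summed to 139 to 169 and to 141 to 290.4, with a median log2 fold change of 0.58, and DESeq2 called 2 of 6 higher, Mki67 and Top2a. The part of these markers in the channel values was not tested.

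**Figure D4:**
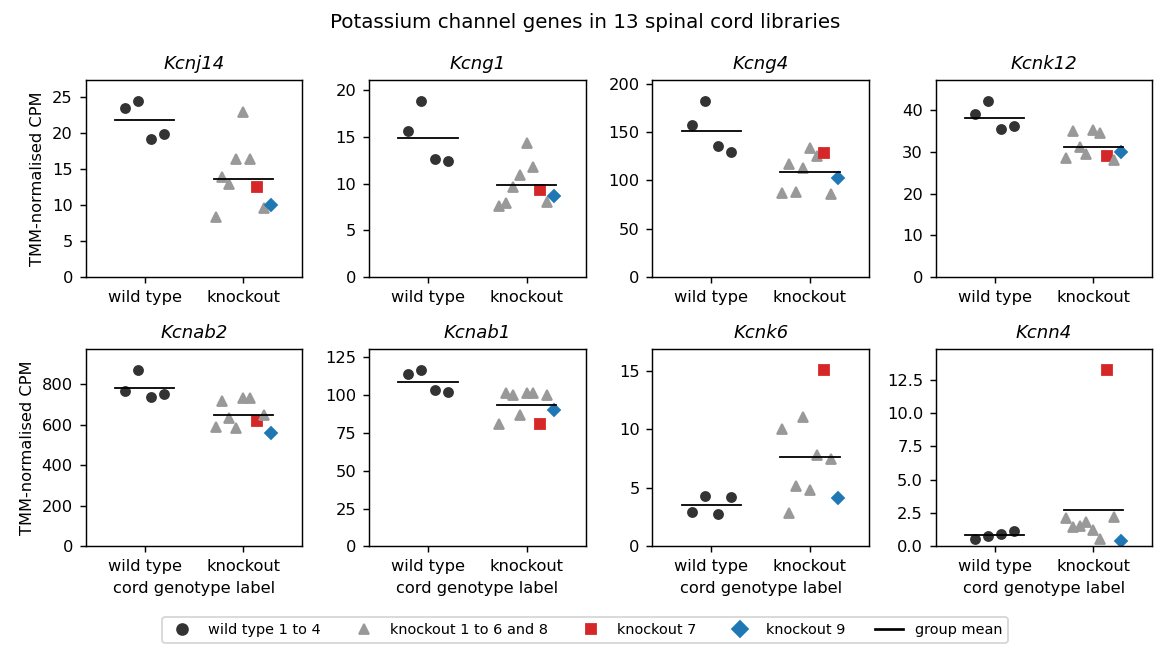
TMM-normalised CPM of 8 channel genes in 4 wild-type and 9 knockout cord libraries, with group means as lines and the libraries labelled knockout 7 and 9 set apart by marker. Every knockout library lies below every wild-type library for Kcnk12, Kcnab2 and Kcnab1, and for Kcnn4 the knockout mean is raised by replicate 7 at 13.2.

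Some libraries held the extreme value for many channel genes. Knockout replicate 7 was the lowest of the 13 cords for 29 of 81 tested channel genes, and the library labelled knockout replicate 9 was the highest for 20 and wild-type replicate 2 for 16. Knockout replicate 7, with most muscle RNA, also held 302 of the 317 knockout counts of Kcna7, a pore known from muscle. Replicate 9 held the highest Kcnmb1, a beta subunit of smooth muscle, at 6.64 normalised CPM, and without it the log2 fold change of that gene went from 0.81 to 0.28. Kcnmb1 lies inside Kcnip1 on the other strand, so reads of the pair may not be told apart, since the strand setting of the counting is not given in the sources used here. Kcnq1 went likewise from 0.43 to 0.12. Of the choroid plexus genes, neither was tested: Kcnj13 had 0.0444 ± 0.0554 normalised CPM in wild type (SD, n = 4) and 0.276 ± 0.258 in knockout (SD, n = 9), and Kcne2 had 0.130 ± 0.149 and 0.145 ± 0.0961. Ttr, the main marker of that tissue, was at 1.92 to 5.56 normalised CPM in wild type and at 0.134 to 0.922 in knockout. The 6 listed choroid plexus markers, Ttr among them, summed to 10.3 to 15.7 in wild type and 7.37 to 51.4 in knockout. Of the 5 tested, 2 had a log2 fold change above 0, and the median was -0.11. At an unadjusted edgeR p under 0.05 stood 1 higher and 1 lower.

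The knockout and LNA effects differed for 8 of 84 channel genes tested by the interaction contrast of an edgeR fit to the 19 libraries together, beside 1.75% of all genes. At an unadjusted p under 0.05 there were 31, beside 14.2%, and DESeq2 called 12, beside 3.79%, among them Kcng1, Kcnj10, Kcnj14 and Kcnq3. For 6 of the 8, Kcna1, Kcnd2, Kcnh5, Kcnh7, Kcnma1 and Kcnt2, the LNA effect was the lower, beside 1.25% of all genes in that direction, and for 2 it was the higher, beside 0.497%. Kcnma1 had the largest difference of these relative to its error, 0.75 ± 0.13 (SE) on the log2 scale with an edgeR adjusted p of 0.00489. It had 102, 98.6, 106 and 99.8 normalised CPM in wild-type cords and 94.8, 113 and 144 (lowest, median, highest) in knockout cords. The highest was the library labelled knockout replicate 9, and the log2 fold change of Kcnma1 in cords was 0.15 with that library and 0.10 without it. The difference was 0.57 ± 0.13 for Kcna1, 0.51 ± 0.13 for Kcnd2, 0.58 ± 0.13 for Kcnh5, 0.84 ± 0.19 for Kcnh7 and 0.74 ± 0.17 for Kcnt2 (SE). For Kcnh3 and Kcne1l, which rose in cultures, it was -1.65 ± 0.37 and -2.39 ± 0.43 (SE). Without knockout library 7 or 9 the count was 9 in each case, and leaving out other libraries gave 2 to 9. The count was 2 without control culture 2 or LNA culture 1, 3 without control culture 1, 4 without LNA culture 2 or wild-type cord 1 or 3, and 5 without wild-type cord 2. Kcne1l and Kcnma1 were called in every one of these fits. Across the 71 channel genes tested in both materials the effects had the same sign for 30 (42.3%, beside 49.3% of 17763 genes tested in both), with Spearman's rho of -0.32 and Pearson's r of -0.11. These points are genes that share libraries and are not independent.

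**Figure D5:**
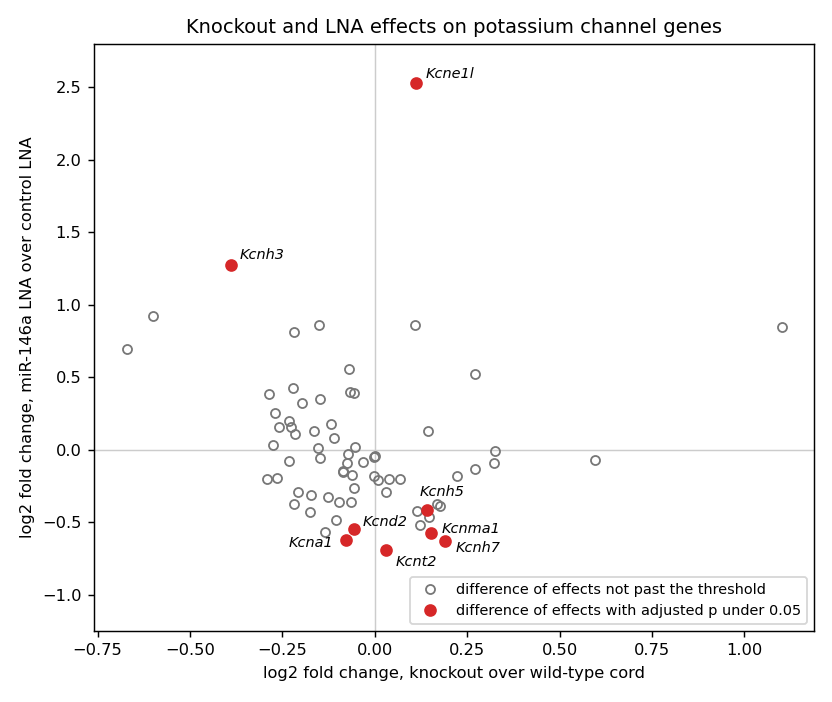
Log2 fold change in cultures (miR-146a LNA over control LNA) against that in cords (knockout over wild type) for the 71 channel genes tested in both. Filled points are the 8 genes whose effects differed, of which 6 lie between -0.08 and 0.19 in cords and between -0.69 and -0.42 in cultures.

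Genes that work with potassium channels without a Kcn symbol also fell more often than they rose in cultures. Of 38 tested from a list of 40 partners and potassium-handling genes, 13 fell, beside 6.16% of all genes, and 1 rose, beside 2.4%. The median log2 fold change was -0.18, beside 0.01 for all genes. These shares are over genes of every span, and the part of span in the partner values was not tested. Among the partners of the A-type pore, Dpp6 fell by 0.45 ± 0.05 (SE) on the log2 scale, from a mean of 163 to one of 120.04 normalised CPM (edgeR adjusted p = 3.18e-05), and Dpp10 by 0.38 ± 0.07 (SE). Of scaffolds and axonal anchors Dlg2, Dlg4, Adam22, Adam23, Ank2, Ank3, Epb41l3 and Dtna fell, with log2 fold changes from -0.59 to -0.20. The pacemaker pore Hcn3 fell by 0.45 ± 0.07 (SE). Abcc8, the sulfonylurea receptor, rose by 0.51 ± 0.14 (SE). In cords edgeR called none of the 40, with 9 lower, beside 6.8% of all genes, and 1 higher, beside 7.53%, at an unadjusted p under 0.05, and DESeq2 called Epb41l3 lower. The pericyte subunit Abcc9 had the highest log2 fold change there, 0.50 ± 0.20 (SE, edgeR adjusted p = 0.301), and its channel partner Kcnj8 had 0.27 ± 0.22 (SE).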

How the data were processed

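Reads were aligned with STAR and counted per gene with featureCounts, per the submitters' design notes, with ribosomal RNA removed by RNase H. Tests used the whole-number count column that the authors deposited. Levels of different genes were compared on the deposited TPM values, and these matched a recalculation from counts and gene lengths in every library. Symbols came from GENCODE M21 (GRCm38), and 92 of the 94 genes had the same start and end in both.

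Cord replicate numbers follow accession order and only name libraries. The members and gene lists were chosen with earlier results of these data known. edgeR 4.0.16 (R 4.3.3) was fitted to all genes of each comparison after its default low-count filter and TMM scaling, with Benjamini-Hochberg adjustment. An SE comes from the fold change and its F value. The fits were tested on simulated data. Alternatives were DESeq2 1.42.0, limma 3.58.1 with voom, other scalings, no filter, a replicate block and leaving out libraries. Genes named were those called, the 8 highest and 8 lowest fold changes of each comparison with at least 1 normalised CPM, the most abundant of each class and channels known from cord. Some genes are counted here but not reported by name. Others are named where a count or a family called for it and were chosen after their values were seen. Of the 94 genes, 42 overlap another gene, 37 of them one on the other strand, and the strand setting of the counting is not given in the sources used here. No pair of libraries matched within sampling noise.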

Additional observations from a re-analysis of the deposited data

Results flagged for a closer look

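In the cord groups, 11 single values of named channel genes stood far from the rest of their group, among 86 groups examined. The rate by chance, about 1 in 20, holds for independent groups. These groups share the same libraries, and many of the genes were named for their fold changes in them. The count therefore cannot show an excess over chance. The library labelled knockout replicate 9 was the highest of its group for 7 genes: Kcnq3 at 145, Kcnma1 at 144, Kcnn3 at 40.1, Kcnb2 at 32.1, Kcnmb1 at 6.64, Kcnq1 at 2.65 and Kcnj13 at 0.885 normalised CPM. Knockout replicate 7 was the highest for Kcnn4 (13.2 normalised CPM, the next being 2.17) and the lowest for Kcnt1 (115, the next being 197). In wild-type cords, replicate 1 was the highest for Kcnq1 (0.932) and replicate 2 the lowest for Kcnt1 (186.5). Whether these values reflect the mouse or the sample was not tested.

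For 8 channel genes the knockout effect in cord and the LNA effect in cultures differed by the interaction term of edgeR. The difference, knockout minus LNA on the log2 scale, was 0.57 for Kcna1, 0.51 for Kcnd2, 0.58 for Kcnh5, 0.84 for Kcnh7, 0.75 for Kcnma1, 0.74 for Kcnt2, -1.65 for Kcnh3 and -2.39 for Kcne1l. Cord and cultures differ in cell types, in the intervention (a genotype or an LNA) and in library groups, which cannot be told apart here.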

How the results depend on the processing

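In cords DESeq2 called 3 channel genes where edgeR called 0. The count in cultures was 15 by edgeR and 14 to 19 under other tools, scalings and filters, and 11 to 17 on leaving out 1 culture. For the difference of effects the count of 8 became 12 with DESeq2, 7 with DESeq2 size factors in edgeR, 5 with library sizes alone and 5 with no low-count filter, and 2 to 9 on leaving out 1 library. In the cultures, scaling by library size alone took the lower share of all calls from 72.0% to 52.9%, and Kcnk9 was no longer called. With the replicate number as a block 16 channel genes were called in cultures. Deviations of same-numbered cultures had correlations of 0.03, -0.109 and 0.0061, and not every culture correlated best with its own number. With so few libraries per group these values cannot show whether same-numbered cultures were paired, and the labels do not say.

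No value that changed sign had passed edgeR's test. In cords, Kcna2 had a log2 fold change of 0.0077 under DESeq2, 0.0077 with DESeq2 size factors in edgeR and 0.027 with library sizes alone. Under limma it was -0.044 for Kcne1l and 0.015 for Kcnip4. Without both libraries 7 and 9 it was -0.025 for Kcne1l, 0.023 for Kcnip4 and 0.0035 for Kcnk1. In cultures with library sizes alone it was 0.0034 for Kcna2 and 0.017 for Kcnn2. On leaving out 1 library, the log2 fold change in cords ran from -0.072 to 0.056 for Kcna2, from -0.098 to 0.013 for Kcnip4, from -0.15 to 0.036 for Kcnt1 and from -0.0025 to 0.093 for Kcnt2. In cultures it ran from -0.12 to 0.0058 for Kcna2, from -0.032 to 0.13 for Kcnab2, from -0.48 to 0.82 for Kcnj16, from -0.26 to 0.052 for Kcnj2 and from -0.15 to 0.16 for Kcnn2. The causes were not tested. A planned search of channel proteins for their pore signature was not run. Counts limit Kcne1l, Kcnh3 and Kcnj16 in cultures.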
